A study of Rattus with 18 samples.

Results

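A group of 9 glomerular genes of blood clotting and clot removal, Plau, Plaur, Plat, F3, Thbd, Tfpi, Procr, Vwf and Pf4, were followed through anti-Thy1 nephritis of the rat, out of 23186 genes and transcripts tested. A gene was taken where the array's own gene name, or its current symbol, was one of these 9 names. The 9 genes had 13 probes, which all passed the filter on dim probes, and each gene was read from its brightest probe. RNA came from isolated glomeruli of SD rats of 200 g, either 1, 2, 3, 4 or 5 days after an injection of antibody to Thy1 (antigen of the mesangial cells of the rat), or on day 0 from rats that had received saline. The labels give 30 antibody rats and 6 saline rats, with 3 glomeruli taken from each of 6 rats per time point, and 18 arrays, 3 per time point (n = 3 throughout). They do not say how the rats were shared among the 3 arrays, so that p-values measure the spread between arrays, part of which may be technical. Signal is given as log2 of the processed intensity minus the 75th percentile of the same array. A value of 0 is therefore a probe at that percentile, and values of different genes cannot be ranked, since each probe binds with its own strength.

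Clotting in a vessel starts when tissue factor (F3) meets plasma factors, and tissue factor pathway inhibitor (Tfpi) blocks that step. Thrombomodulin (Thbd) and the endothelial protein C receptor (Procr) turn thrombin towards activating protein C, which slows clotting. Tissue plasminogen activator (Plat) and urokinase (Plau) make plasmin, which dissolves fibrin, and the urokinase receptor (Plaur) holds urokinase at the cell surface. Von Willebrand factor (Vwf), made by endothelial cells and megakaryocytes, tethers platelets, and platelet factor 4 (Pf4) is a chemokine stored in their granules. Glomerular capillaries are lined by endothelium that carries several of these proteins, and platelets and fibrin are known to gather in injured glomeruli.

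The 5 probes below are shown because the results on Pf4, Plat, Plau and Vwf rest on them, and because the Vwf pair reads the same gene at different places. Positions are those the files give, on build rn4, and the sequences are the probes as deposited, 5′ to 3′, with no base marked. The Pf4 probe lies at chr14:18812555-18812614 on the minus strand, the Plat probe at chr16:73717402-73717547 (minus) and the Plau probe at chr15:3680711-3680770 (minus). The brighter Vwf probe lies at chr4:161853997-161854486 (plus) and the dimmer one at chr4:161809533-161809592 (plus). The Plat probe and the brighter Vwf probe span 146 and 490 bases of genome for 60 bases of probe, so each crosses a gap in the genome. No exon annotation of this build was used here.
Pf4: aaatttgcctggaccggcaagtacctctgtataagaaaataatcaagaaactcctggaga
Plat: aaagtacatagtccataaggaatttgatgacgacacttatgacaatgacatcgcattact
Plau: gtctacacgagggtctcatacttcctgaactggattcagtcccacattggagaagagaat
Vwf brighter: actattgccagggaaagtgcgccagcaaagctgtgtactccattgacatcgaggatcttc
Vwf dimmer: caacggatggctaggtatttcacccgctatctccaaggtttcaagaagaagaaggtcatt

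Before scaling, the 75th percentiles of the arrays ran from 180.7 to 452.4, and were 252 or more on the antibody arrays, against 189, 180.7 and 229 on the 3 saline arrays. An array had 55.2% to 69.6% of its probes well above background, and no spot was saturated. Saline replicate 4 correlated least with the other arrays of its day (r = 0.952 and 0.958 across probes). Thy1, whose antigen the antibody binds, fell by 3.25 ± 0.59 (SE) on day 1 and by 1.84 ± 0.59 on day 2 (limma with Benjamini-Hochberg adjustment, adjusted p = 0.0026 and 0.0199; the day 2 call was lost without saline replicate 4 or day 2 replicate 3). Nphs1 of podocytes and Cdh5 of endothelium were well above background on all saline arrays, so these markers of the labelled tissue were present. Tubule genes also gave signal. The mean log2 signal of 18 tested tubule markers, relative to the 75th percentile, was 3.49 to 3.76 on the saline arrays. It lay between 3.00 and 4.00 on the antibody arrays. The RNA was thus not shown to be free of tubule RNA, and the part of tubules in the changes below was not tested. The arrays of days 2 and 4 had a scan day of their own, so that for these 2 days scan day and time after injection cannot be told apart against day 0. In such bulk RNA, fewer cells of a type and less RNA per cell cannot be told apart either.

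Against saline, the largest change among the 9 genes was that of Pf4, 6.54-fold, 13-fold and 10.7-fold higher on days 1, 2 and 3. Tfpi was 1.73-fold to 1.84-fold higher on all 5 days, F3 was higher on days 1, 4 and 5, Procr on days 3 and 4, Thbd on day 4 and Vwf on day 1. Plat was lower on days 1, 2 and 4, and Plau and Plaur did not pass on any day. On day 1, 5 of the 9 genes passed (4 higher, 1 lower), beside 40.0% of all genes tested (19.2% higher, 20.7% lower). On day 2, 3 passed (2 higher, 1 lower), beside 45.9% (20.8% and 25.1%), and on day 3, 3 passed, all higher, beside 47.7% (21.8% and 26.0%). On day 4, 5 passed (4 higher, 1 lower), beside 52.3% (25.6% and 26.7%), and on day 5, 2 passed, both higher, beside 44.3% (20.9% and 23.4%). Over all time points 4 of the 9 passed limma's moderated F-test (Tfpi, Pf4, Vwf and F3), beside 53.1% of all genes. The share of genes that changed was so large that these counts do not set the 9 genes apart. The median change of the 9 genes lay between 0.27 and 0.68 on the 5 days, and that of all genes between -0.02 and 0.07. Most of the 9 were bright, however, and bright genes were higher in general. In the 2 brightest of 5 equal groups of genes by mean signal the median change was 0.35 to 0.52 and 0.21 to 0.31.

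**Figure D1:**
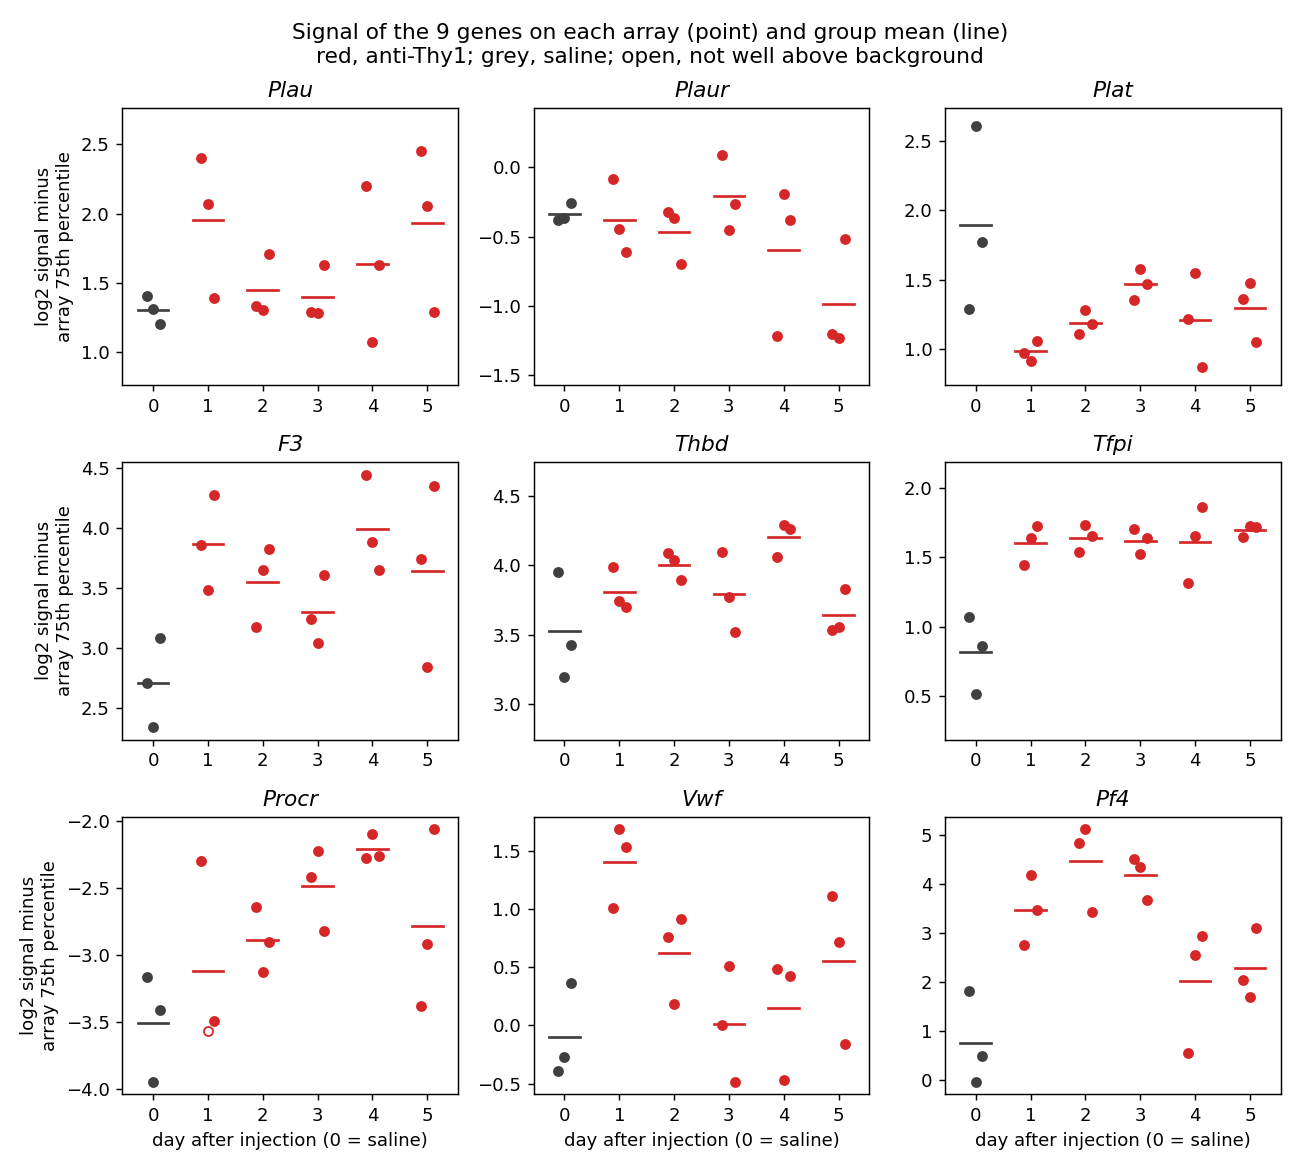
Signal of the 9 genes (log2 processed intensity minus the array's 75th percentile) on each of the 18 arrays by day; red points are anti-Thy1 arrays, grey points saline arrays of day 0, lines group means, and the open point is not well above background. Pf4 on days 1, 2 and 3 and Tfpi on all 5 days lie above every saline array, and Plat on day 0 is widely spread, between 1.29 and 2.61.

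**Figure D2:**
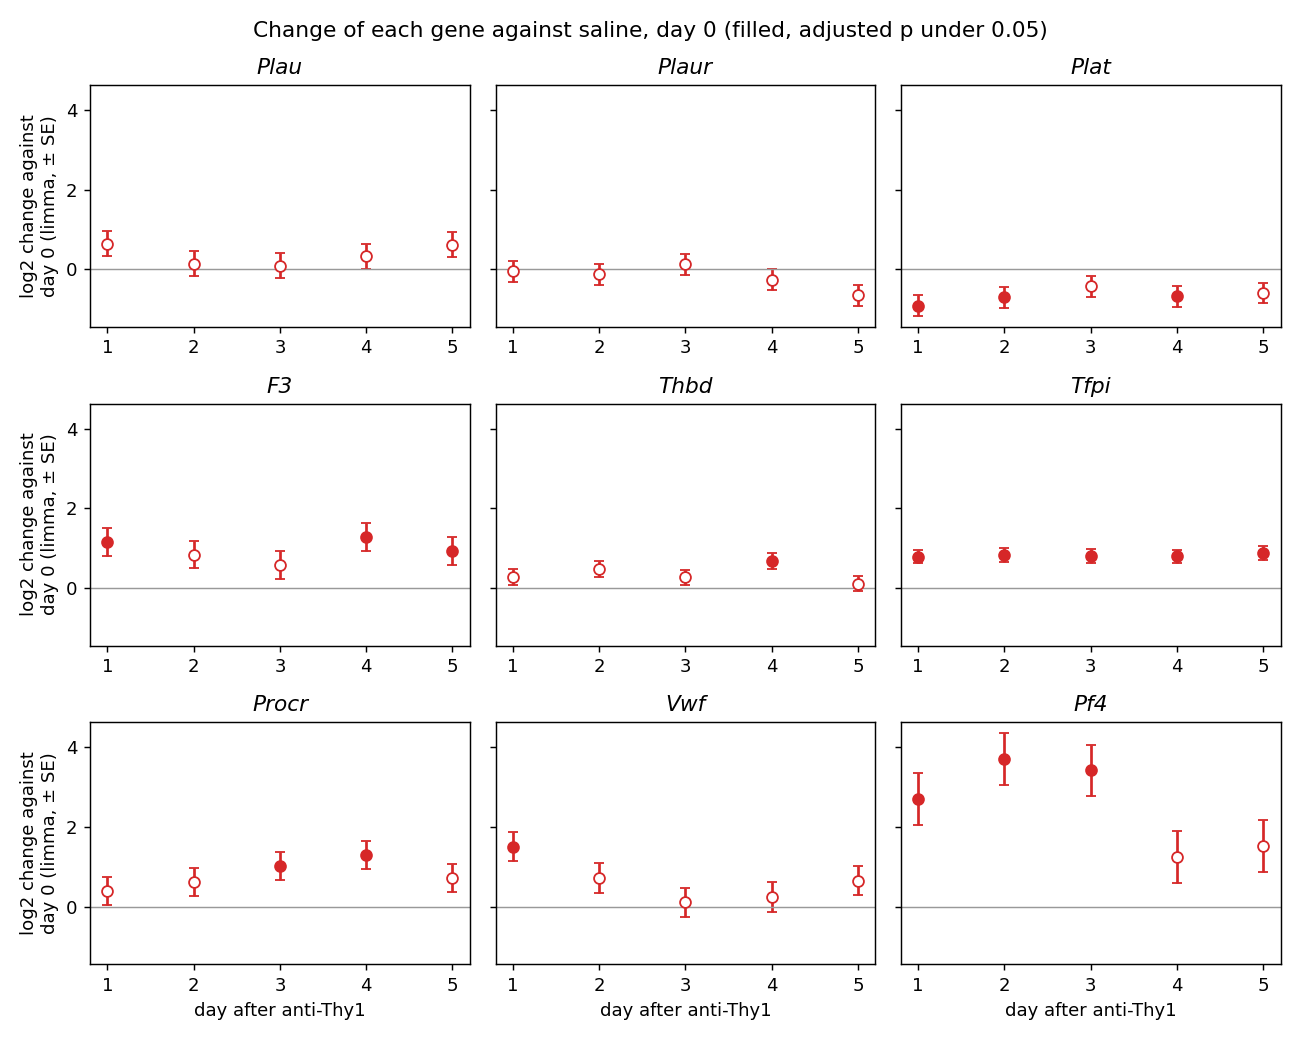
Change of each gene on days 1 to 5 against saline on day 0 (log2, limma estimate, bars ± SE, n = 3 arrays per group); filled points have an adjusted p under 0.05. Pf4 reaches 3.70 on day 2, Tfpi stays between 0.79 and 0.88, and all 5 changes of Plat are below 0.

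Of the plasminogen activators, Plat was lower and Plau did not pass. Plat had 0.97, 0.92 and 1.06 on the day 1 arrays, against 1.29, 2.61 and 1.77 on the saline arrays. No day 1 array reached the lowest saline array, but 1 saline array, replicate 4, stood far above the others. Plat was 1.88-fold lower on day 1 (log2 -0.91 ± 0.26 SE, adjusted p = 0.0144), 1.63-fold lower on day 2 (-0.70, 0.0379) and 1.60-fold lower on day 4 (-0.68, 0.0387). The antibody arrays of days 2, 3, 4 and 5 lay between 0.87 and 1.58. Day 2 lay just under the lowest saline array, and days 3, 4 and 5 overlapped saline. The changes of -0.43 on day 3 and -0.60 on day 5 did not pass (adjusted p = 0.189 and 0.0725). Without saline replicate 4 none of the 3 calls held, nor did any in fits of the 2 groups alone (adjusted p = 0.0877, 0.122 and 0.162). Without that array the changes were -0.55, -0.34 and -0.32 (adjusted p = 0.0647, 0.202 and 0.211). The day 1 call was also lost without day 1 replicate 4 (0.0513). The day 2 call held only without saline replicate 2, and the day 4 call only without saline replicate 2 or day 4 replicate 2. The Plat probe was printed 10 times on every array, and the SD of those spots was 0.05 to 0.10 on the log2 scale, against an SD of 0.67 between the saline arrays.

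Plau had 2.40, 2.07 and 1.39 on the day 1 arrays, and 1.41, 1.31 and 1.20 on the saline arrays. It was not uniform within a day: days 4 and 5 ranged over 1.08 to 2.20 and 1.29 to 2.45, whereas the saline arrays had an SD of 0.10. Its largest changes were 0.65 ± 0.32 on day 1 and 0.62 ± 0.32 on day 5 (adjusted p = 0.114 and 0.123), and those of days 2, 3 and 4 were 0.14, 0.09 and 0.33. The day 1 change passed without day 1 replicate 5 (0.93, adjusted p = 0.0361) and the day 5 change without day 5 replicate 5 (0.94, 0.0334). Both passed after scaling to the array median (0.98 and 1.05, adjusted p = 0.0266 and 0.0167). After scaling to 12 reference genes they were 0.061 and 0.049, and neither passed (adjusted p = 0.894 and 0.916).

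The urokinase receptor gene Plaur had -1.21, -1.23 and -0.52 on the day 5 arrays, and -0.38, -0.37 and -0.26 on the saline arrays. All 3 day 5 arrays lay below the saline arrays, and the change of -0.65 ± 0.26 narrowly missed the threshold (adjusted p = 0.0565). It passed when day 5 replicate 5 was left out (-0.88), and also with days 0, 1, 3 and 5 alone, the arrays of 1 scan day (-0.65). On days 1 to 4 the changes lay between -0.26 and 0.13. The second Plaur probe gave 0.21, 0.31, 0.60, 0.30 and -0.21 on days 1 to 5, none of which passed, and it differed in sign from the first on days 1, 2 and 4.

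Other genes of the plasminogen system were counted beside them. Of 11 tested, 3, 2, 4, 7 and 3 were higher on days 1 to 5, and 2, 1, 1, 1 and 1 were lower; Plg itself, the gene of plasminogen, did not pass the filter. Among all genes the share higher was 19.2%, 20.8%, 21.8%, 25.6% and 20.9%, and the share lower 20.7%, 25.1%, 26.0%, 26.7% and 23.4%. Serpine2, the gene of a protease inhibitor that acts on both activators, was lower on day 1 (-1.81 ± 0.52) and higher on day 4 (1.38 ± 0.52). The day 1 call was lost without saline replicate 2 or day 1 replicate 4. The day 4 call was lost without saline replicate 4 or 5, or without day 4 replicate 2 or 3, with changes of 0.997 to 1.84 over the 6 fits that left out 1 array. Thbs1, which encodes the matrix and platelet protein thrombospondin 1, was lower on all 5 days (log2 -2.64, -2.55, -2.33, -2.76 and -2.0, adjusted p between 0.000569 and 0.00557). Plgrkt, a plasminogen receptor gene, was higher by 0.97 to 1.42 on all 5 days. The median change of these 11 genes was 0.59, 0.71, 0.57, 0.92 and 0.59.

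F3, the gene of tissue factor, had 3.86, 3.48 and 4.27 on the day 1 arrays and 4.45, 3.88 and 3.65 on the day 4 arrays, against 2.71, 2.35 and 3.08 on the saline arrays. Both days lay wholly above saline. F3 was 2.23-fold higher on day 1 (log2 1.16 ± 0.35, adjusted p = 0.018), 2.43-fold higher on day 4 (1.28, 0.00692) and 1.90-fold higher on day 5 (0.93, 0.0409). On day 5 the arrays were spread from 2.84 to 4.35 and overlapped saline, and the call was lost without saline replicate 2 or 4, or without day 5 replicate 2 or 5. The changes of 0.84 on day 2 and 0.59 on day 3 did not pass (adjusted p = 0.0592 and 0.177). Without saline replicate 4 the day 1 change was 0.97 (adjusted p = 0.0858), and without day 1 replicate 5 it was 0.96 (0.0575). Quantile normalization gave 0.89 on day 1 (0.0512) and 0.60 on day 5 (0.167).

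Tfpi, the inhibitor of the tissue factor step, was at a similar level on all 5 antibody days. Its 15 antibody arrays lay between 1.31 and 1.86, and the saline arrays had 1.07, 0.51 and 0.86, so that no day overlapped saline. The changes were 0.79, 0.83, 0.81, 0.80 and 0.88 on days 1 to 5 (SE 0.17, adjusted p = 0.00419, 0.00187, 0.00174, 0.00147 and 0.00155), and they kept passing when any 1 array was left out. A fit of days 1 and 0 alone left the day 1 change at an adjusted p of 0.0536. The second Tfpi probe, assigned in the files to another transcript record and lying at chr3:67662577-67662636 against chr3:67654531-67654590 for the first, did not show this. It read -2.59, -2.46 and -2.31 on day 1, and -2.35, -1.32 and -2.20 on the saline arrays. Its changes were -0.50, -0.31, -0.24, -0.03 and -0.18, all opposite in sign to the first probe, and none passed (adjusted p between 0.0779 and 0.904). With both probes averaged, the changes of days 1, 2 and 3 were 0.15, 0.26 and 0.28 and no longer passed.

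**Figure D3:**
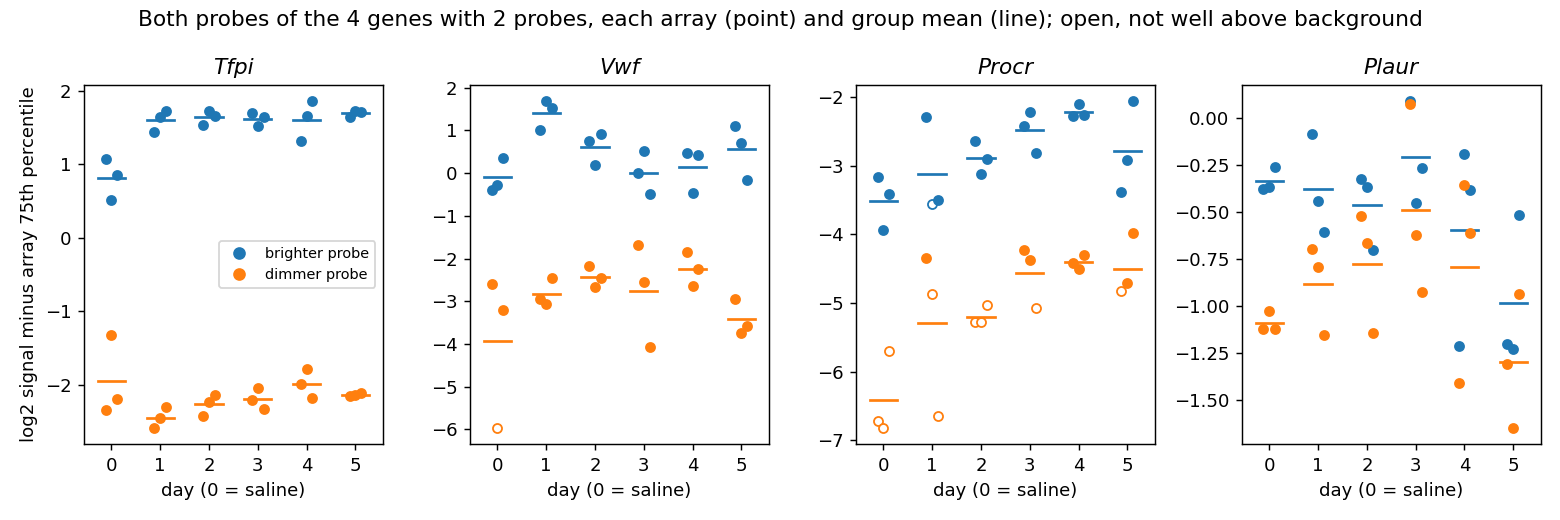
Signal of both probes of Tfpi, Vwf, Procr and Plaur on each array by day (log2 processed intensity minus the array's 75th percentile); blue is the brighter probe, orange the dimmer one, lines are group means and open points are not well above background. The Tfpi probes move apart after day 0, and the dimmer Procr probe has only open points on day 0 and day 2.

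Of 12 tested genes of clotting factors, fibrinogen and related proteins, 5, 3, 1, 7 and 4 were higher on days 1 to 5, and 0 were lower. The list also holds Fgl2, Ggcx, Tgm2 and Vkorc1, which are not clotting factors, and the day 3 call was Fgl2. The share higher among all genes was 19.2%, 20.8%, 21.8%, 25.6% and 20.9%, and the share lower 20.7%, 25.1%, 26.0%, 26.7% and 23.4%. The median changes of the 12 genes were 0.64, 0.33, 0.39, 0.58 and 0.53. Fgg, a fibrinogen chain gene counted as higher on days 1 and 4, was not well above background on any saline array. It was so on 2 of 3 arrays on days 1 and 4, and on all 3 only on day 5. Since Fgg passed the filter only through day 5, its changes against saline are not given. F13b, a subunit of the factor that crosslinks fibrin, was higher by 1.47 ± 0.33 on day 4. Fgl2, the gene of a membrane protein that can cleave prothrombin, was higher by 2.30 ± 0.62 on day 3 and 2.10 ± 0.62 on day 4, the second not without day 4 replicate 2.

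The 2 endothelial genes of the protein C pathway were highest on day 4. Procr had -2.27, -2.10 and -2.26 on the day 4 arrays and -2.42, -2.22 and -2.82 on the day 3 arrays, against -3.17, -3.94 and -3.41 on the saline arrays. Neither day overlapped saline. Procr was 2.45-fold higher on day 4 (log2 1.29 ± 0.35, adjusted p = 0.00707) and 2.03-fold higher on day 3 (1.02, 0.0267). Changes of 0.39, 0.62 and 0.72 on days 1, 2 and 5 did not pass, and on day 1 one of the 3 arrays was not well above background. Without saline replicate 4 the day 3 change was 0.80 (adjusted p = 0.119), and the call was also lost without day 3 replicate 2 (0.98, 0.0707) or 3 (0.89, 0.0897). The second Procr probe was well above background on all 3 arrays of day 4, on 2 of 3 on days 3 and 5, on 1 of 3 on day 1 and on 0 of 3 on day 2 and in saline. It passed the filter only through day 4, so its changes against saline are not given.

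Procr was a dim probe, in the second dimmest of 5 equal groups of genes by mean signal, where the median change over the 5 days was -0.41 to -0.32. A background correction that compresses dim signals (normexp with an added 50 intensity units) gave 0.09 on day 3 and 0.14 on day 4, and neither passed. The version of it chosen after seeing the data, fitted without the lowest 0.1% of spots, gave 0.06 and 0.16, and neither passed.

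Thbd had 4.06, 4.29 and 4.26 on the day 4 arrays and 3.95, 3.20 and 3.43 on the saline arrays. Every day 4 array was above every saline array, by a small margin for the highest saline array. Thbd was 1.60-fold higher (log2 0.68 ± 0.20, adjusted p = 0.00984), and its changes of 0.28, 0.48, 0.27 and 0.11 on days 1, 2, 3 and 5 did not pass. The day 4 change was 0.26 after quantile normalization and also 0.26 in the deposited table, and neither passed (adjusted p = 0.235 and 0.272). The call was also lost in a fit of the 2 groups alone (0.0621) and with a replicate block (0.57, 0.0612). Without saline replicate 2 the changes of days 1, 2 and 3 passed (0.50, 0.69 and 0.48). Among the 36 pairs of the 9 genes, Thbd and Procr had the highest correlation (r = 0.71 over the 18 arrays, which share their days).

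Of 7 tested genes of other anticoagulants and thrombin receptors, 2, 2, 1, 1 and 1 were higher on days 1 to 5, and 0, 1, 1, 1 and 1 were lower (limma; 2 lower on day 1 at an unadjusted p under 0.05). Among all genes 19.2%, 20.8%, 21.8%, 25.6% and 20.9% were higher, and 20.7%, 25.1%, 26.0%, 26.7% and 23.4% were lower. The median changes of the 7 genes were -0.37, -0.21, -0.10, -0.02 and -0.30. The day 2 count of genes higher includes F2rl2, which was well above background on all 3 arrays on day 2 only, and on 1 of 3 in saline. Since F2rl2 passed the filter only through day 2, its changes against saline are not given. Proc, the gene of protein C itself, was higher by 1.00 ± 0.23 on day 1, when neither Thbd nor Procr passed. Anxa5, which encodes a phospholipid-binding protein with anticoagulant action, was higher by 1.09 ± 0.24 on day 3. F2rl1, the gene of a protease-activated receptor, was lower on day 4 (-1.10 ± 0.29). F2r, the thrombin receptor gene, did not pass the filter.

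Vwf had 1.00, 1.68 and 1.53 on the day 1 arrays, and -0.39, -0.27 and 0.36 on the saline arrays. The day 1 arrays were all above saline, whereas those of days 3 and 4 (-0.48 to 0.51) covered the saline range. The change was 2.84-fold on day 1 (log2 1.51 ± 0.37, adjusted p = 0.00722), and 0.72, 0.11, 0.25 and 0.66 on days 2 to 5, none of which passed (day 5 did without day 5 replicate 5, at 1.01). Day 3 against day 1 differed by -1.40, which did not pass either (adjusted p = 0.15). On the slide that held both days, the 2 arrays of day 3 differed from the 2 of day 1 by -1.35.

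The dimmer Vwf probe had changes of 1.10, 1.49, 1.16, 1.67 and 0.50 on days 1 to 5, and none passed. Its sign was the same as that of the brighter probe on every day, but its highest day was day 4. One saline array, replicate 4, stood at -5.96 and was not well above background, and the other saline arrays had -2.60 and -3.19.

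Most markers of endothelium did not pass. Of 19 tested, 0, 1, 2, 0 and 0 were higher on days 1 to 5 and 4, 3, 3, 6 and 4 were lower (limma; 0, 0 and 1 higher on days 1, 4 and 5 at an unadjusted p under 0.05). Of all genes tested, 19.2%, 20.8%, 21.8%, 25.6% and 20.9% were higher on these days, and 20.7%, 25.1%, 26.0%, 26.7% and 23.4% were lower. Calls of higher were thus rarer in the list than among all genes on every day. Calls of lower lay on both sides of their share. Whether the list differs from all genes was not tested. The median changes of the 19 markers were -0.15, -0.12, 0.06, -0.53 and -0.32. Tek, a receptor gene of endothelial cells, was lower on all 5 days (-1.24, -0.70, -0.61, -1.02 and -1.26). Pecam1 was lower on days 1, 4 and 5 (-1.32, -1.68 and -1.78), and Cdh5 did not pass on any day. Without saline replicate 4 the Tek calls of days 2 and 3 and the Pecam1 call of day 1 were lost, as they were without day 2 replicate 4, day 3 replicate 3 and day 1 replicate 1. The mean log2 signal of the list was 1.03 to 1.22, 1.08 to 1.73, 1.46 to 1.85, 0.61 to 1.16 and 0.92 to 1.42 on the arrays of days 1 to 5, against 1.38 to 1.67 on the saline arrays. It lay wholly below saline on days 1 and 4 and overlapped saline on days 2, 3 and 5. The part of the endothelial level in the values of Vwf, Thbd and Procr was not tested.

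Pf4 had 2.74, 4.18 and 3.46 on the day 1 arrays, against 1.81, -0.04 and 0.49 on the saline arrays. It had 4.83, 5.11 and 3.42 on day 2, and 4.51, 4.34 and 3.67 on day 3. All 9 of these antibody arrays were above the highest saline array. On day 4 the arrays had 0.55, 2.55 and 2.94 and on day 5 they had 2.04, 1.69 and 3.09, and both days overlapped the saline range.

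Pf4 was higher by 2.71 ± 0.65 on day 1 (adjusted p = 0.00685), 3.70 on day 2 (0.00107) and 3.42 on day 3 (0.00114). The changes of 1.26 on day 4 and 1.52 on day 5 did not pass (adjusted p = 0.116 and 0.0691). Without saline replicate 2 both passed (1.79 and 2.05), and without day 4 replicate 1 day 4 did (1.99). Day 4 against day 2 differed by -2.44 (adjusted p = 0.154), so that the lower level of the later days was not itself a call. The 3 early calls held when any 1 array was left out, at 2.31 to 4.23. With the normexp background correction the day 1 change was 2.12 and did not pass (adjusted p = 0.22).

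Most tested markers of platelets and of macrophages were higher on the same days. Of 9 tested platelet markers, 6, 6, 7, 0 and 0 were higher on days 1 to 5, and 1, Itgb3, was lower on each (limma; 1 and 2 higher on days 4 and 5 at an unadjusted p under 0.05). Among all genes 19.2%, 20.8%, 21.8%, 25.6% and 20.9% were higher, and 20.7%, 25.1%, 26.0%, 26.7% and 23.4% were lower. The median changes of the 9 platelet markers were 1.63, 2.35, 2.05, 0.73 and 0.97. On days 1, 2 and 3 the changes of Treml1, a receptor gene of platelet granules, were 2.36, 3.12 and 2.45, and those of Clec1b, a platelet lectin gene, were 2.45, 3.25 and 2.64. Those of Gp1bb, part of the platelet receptor for von Willebrand factor, were 1.63, 2.53 and 2.22, and those of Gp9, of the same receptor, were 0.81, 0.75 and 0.66. Without saline replicate 4 the Gp9 calls of all 3 days and the Gp1bb call of day 1 were lost, and without day 1 replicate 4 those of day 1 were lost. The Gp9 calls of days 2 and 3 were also lost without replicate 2 or 3 of their own day, and that of day 3 without saline replicate 5. Ppbp, the gene of another platelet granule chemokine, did not pass on any day, and Itgb3 was at least 3.38-fold lower on day 4. The defining genes Gp1ba, Gp5 and Selp did not pass the filter on dim probes.

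The mean log2 signal of the platelet list was -2.06 to -1.32 on day 1, -1.90 to -0.78 on day 2 and -1.84 to -1.26 on day 3, against -3.31 to -2.36 on the saline arrays. On days 4 and 5 it was -3.41 to -2.16 and -3.20 to -2.13. Of 17 tested macrophage markers, 12, 15, 15, 4 and 3 were higher on days 1 to 5 (median changes 2.48, 2.45, 3.05, 1.23 and 1.01). This stands beside 19.2%, 20.8%, 21.8%, 25.6% and 20.9% of all genes, so that days 4 and 5 were near that share. Cd68 was higher by 2.48, 2.32 and 2.89 on days 1, 2 and 3. The macrophage list read 1.74 to 2.06 on day 1 and 2.20 to 2.72 on day 3, against -1.05 to -0.04 on saline arrays. The part of platelets or macrophages in the Pf4 result was not tested.

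**Figure D4:**
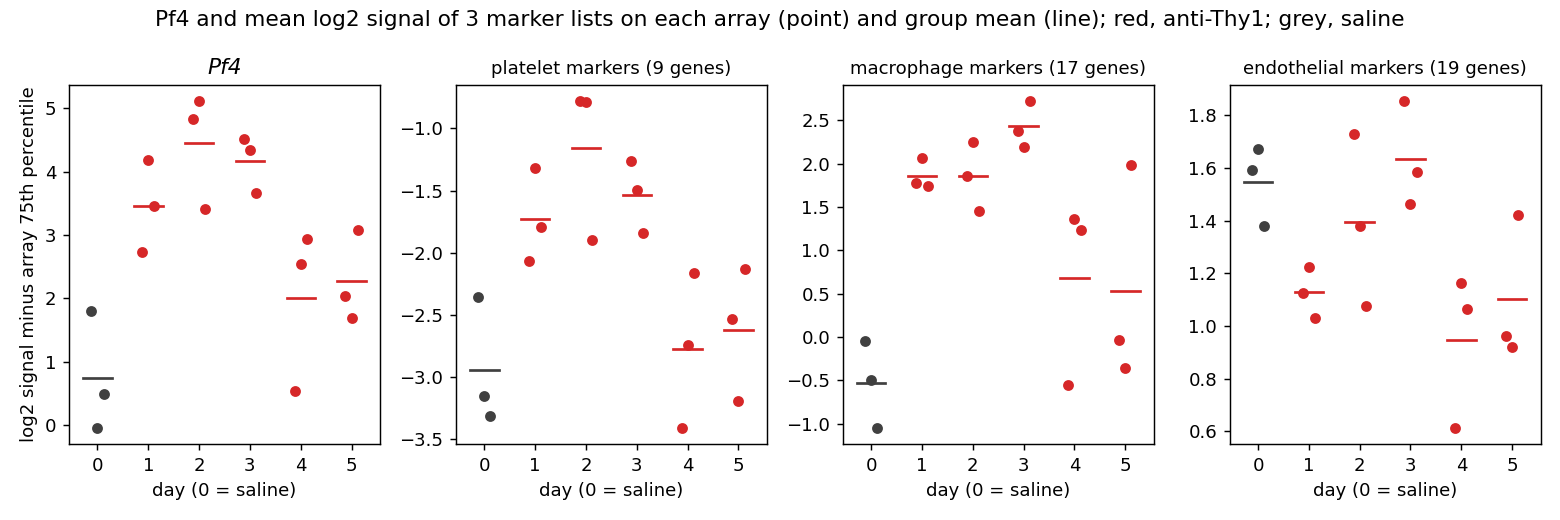
Pf4 and the mean log2 signal of the platelet (9 genes), macrophage (17) and endothelial (19) marker lists on each array by day, relative to the array's 75th percentile; red points are anti-Thy1 arrays, grey points saline arrays and lines group means. Pf4 and the first 2 lists are above all saline arrays on days 1, 2 and 3.

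Over the 18 arrays, the 3 named genes whose signal was most like that of Pf4 were Npy (Pearson r = 0.988), Gp1bb (0.972) and Treml1 (0.968). Those most like Plau were Abhd14b, Atp6v0c and Hdhd3 (0.921 to 0.898), those most like Plaur were Spred3, Notch4 and S1pr4 (0.854 to 0.811), and those most like Plat were Smad4, Kbtbd2 and Fam91a1 (0.904 to 0.873). F3 was nearest to Gnpnat1, Mcts1 and Rpap1 (0.806 to 0.790), Thbd to Nol10, Orc3 and Abi1 (0.936 to 0.908) and Tfpi to Snrpd2, Thumpd3 and Tpgs2 (0.945 to 0.929). Procr was nearest to Sema3d, Srp19 and Elp6 (0.919 to 0.866), and Vwf to Fam221a, Gnaz and Padi2 (0.798 to 0.764). These are the highest values among all named genes, over arrays that share their days and their scaling, and are given as a description. Among the 9 genes themselves r ran from -0.74 (Plat and Tfpi) to 0.71.

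Between later time points none of the 9 genes passed (limma, 0 of 9 each for day 3 against day 1, day 5 against day 3, day 5 against day 1 and day 4 against day 2). At an unadjusted p under 0.05 there were 1, 2, 2 and 1 of the 9. Few genes passed at all between these days, namely 0.00431%, 0.00863%, 0.121% and 0.0992% of all genes tested.

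The changes against saline depended on how arrays were scaled. Of the genes called on a day, 45.3% to 48.9% were higher with the 75th percentile, 70.0% to 75.8% after scaling to the array median and 6.35% to 10.7% after scaling to 12 reference genes. The median change of all genes moved with it, to 0.38 to 0.49 after median scaling and to -0.71 to -0.50 after scaling to the reference genes. With the reference genes, Pf4 still passed on days 1, 2 and 3 (2.12, 3.16 and 2.79). These 12 genes were not level themselves. With the 75th percentile, 7, 8, 8, 10 and 7 of them passed as higher on days 1 to 5, and 0 as lower. Their median changes were 0.473, 0.525, 0.724, 0.667 and 0.496, so that using them as the standard moves the changes of other genes down. Which scaling is nearer to the true change was not tested. With this standard Plat passed as lower on all 5 days (-1.50, -1.25, -1.06, -1.45 and -1.17). Tfpi (0.03 to 0.31), F3, Procr, Thbd and Vwf passed on no day as higher. Plaur passed as lower on days 2, 4 and 5 (-0.68, -1.03 and -1.22), and Thbd as lower on day 5 (-0.46). After median scaling none of the Plat changes passed.

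**Figure D5:**
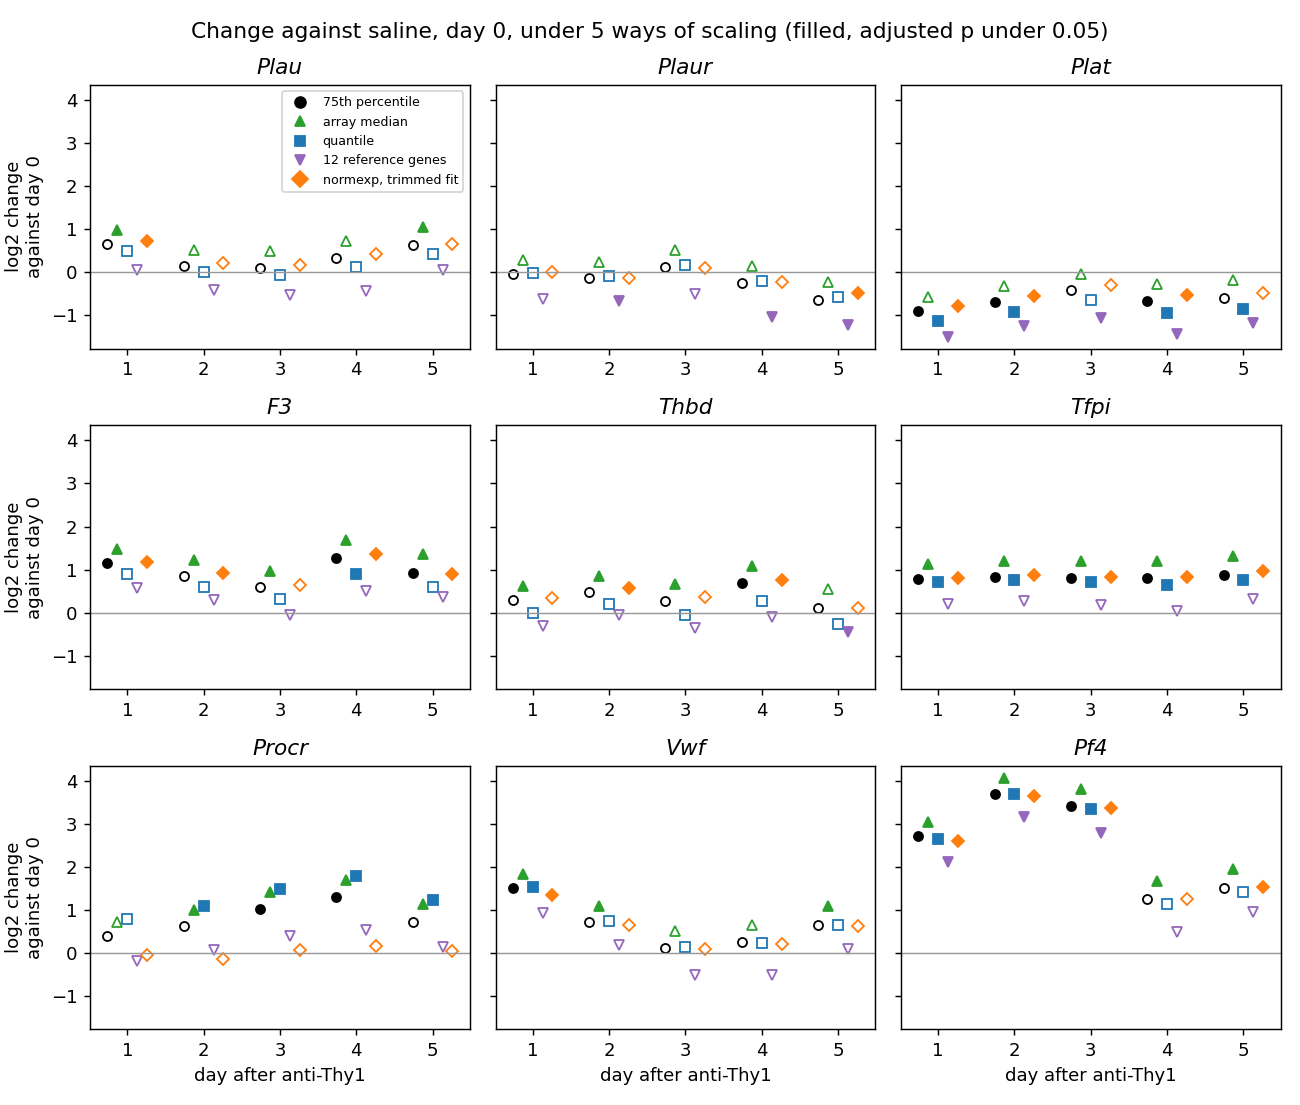
Change of the 9 genes on days 1 to 5 against saline (log2) under 5 treatments of the arrays, as the legend gives them; filled symbols have an adjusted p under 0.05. Values scaled to the array median lie above, and those scaled to the reference genes below, those of the 75th percentile. The Pf4 changes of days 1, 2 and 3 are filled under all 5, while Procr is near 0 with the trimmed normexp correction. The normexp correction without trimming is not drawn, and with it the Pf4 change of day 1 did not pass (2.12, adjusted p = 0.22).

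Changes also went with brightness. With genes put in 5 equal groups by mean signal, the brightest group held F3, Thbd and Pf4 and had a median change of 0.35 to 0.52 over the 5 days, and the dimmest had one of -0.75 to -0.64. Plau, Plat, Tfpi and Vwf were in the second brightest group, whose median change was 0.21 to 0.31, so that the Tfpi changes were above and the Plat changes below it. Part of this trend is set by ranking genes on all arrays, and its part in the changes of the 9 genes was not tested.

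The slide could be separated from the day only in part. On the slide that held all 3 saline arrays, day 1 replicate 1 differed from them by 1.99 for Pf4, 1.10 for Vwf, 1.14 for F3, 0.63 for Tfpi and -0.92 for Plat. With the slide as a fixed block these were the day 1 changes, and none of the 5 passed (adjusted p between 0.0674 and 0.12). With that block the day 3 changes were 2.59 for Pf4 (adjusted p = 0.088), 0.56 for Tfpi (0.197) and 2.42 for Procr (0.0343). On day 5 they were 0.62 for Tfpi (0.302) and 0.44 for F3 (0.753). Days 2 and 4 shared no slide, directly or through other days, with the saline arrays.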

How the data were processed

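The processed intensity of each array was deposited by the authors and, per the file headers, made with Agilent Feature Extraction 10.7.3.1 (background subtraction and detrending within the array, no scaling between arrays). Here it was converted to log2 and the 75th percentile of each array was subtracted. A deposited table of the same arrays holds log2 values, and how it was made is not given in the sources used here. Within 2 sets of arrays (days 0, 2 and 4, and days 1, 3 and 5) its columns share their quantiles, so it was used only within a set. The scale between the sets is unknown.

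Control and outlier spots were dropped, and spots of 1 probe were averaged. Probes were kept if well above background on all arrays of at least 1 group (27836 of 41012), and the brightest probe stood for a gene. All 6 groups were fitted with limma 3.58.1 (R 4.3.3, with version 1.17.8 of the package data.table), with Benjamini-Hochberg adjustment over 23186 genes and a threshold of 0.05. The steps were tested on simulated data. "At least N-fold" sets the brighter mean against the lowest signal well above background. Precision rests on 3 arrays per group.

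The 9 genes and the gene lists were chosen with earlier results of these data known. The text names all 9, up to 4 of the largest changes per list with preset genes of interest, and the 3 genes most like each of the 9. Alternatives covered scaling, background correction, filters, probes, the deposited log2 values, slide, scan day, each array left out and a replicate block. A normexp fit without the lowest 0.1% of spots was added after seeing the data.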

Additional observations from a re-analysis of the deposited data

How the results depend on the processing

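The 3 arrays per group limit every value, and Procr and the dimmer Vwf and Procr probes lie near background. The numbers of the 9 genes called on days 1, 2, 3, 4 and 5 and over all time points (5, 3, 3, 5, 2 and 4) moved as follows. Normexp background correction gave 0, 1, 1, 1, 0 and 1. All genes called then numbered 28, 1475, 1541, 2602, 56 and 844, against 9264, 10651, 11069, 12118, 10263 and 12308. With normexp fitted without the lowest 0.1% of spots, 5 of the 9 genes were called on day 2 and 4 on day 5. Median scaling gave 6, 5 and 6 on days 2, 3 and 5, and reference genes gave 2 on days 1 and 4. The slide as a fixed block gave 0, 1 and 0 on days 1, 3 and 5 (4098, 2900 and 101 of all genes) and could not be fitted for days 2 and 4. A fit of the 2 groups alone gave 3, 3 and 1 on days 1, 4 and 5 (all genes 3305 and 4816 on days 1 and 5). The deposited table gave 3 on day 4, and no filter on dim probes 1 on day 5.

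With 1 array left out, the numbers called ranged from 3 to 6, 2 to 4, 2 to 5, 4 to 6, 1 to 4 and 2 to 5. Saline replicate 4 brought 3 on day 1, 1 on day 5 and 2 over all time points, saline replicate 2 brought 5 on day 3, day 5 replicate 5 brought 4 on day 5 and day 1 replicate 5 brought 2 over all time points. All genes called fell to 4616 on day 1 and 6515 on day 5 at the lowest. Numbers shared by arrays of different days did not pair them: the correlation of deviations from the group means had a median of -0.025 over 27 same-numbered pairs and 0.003 over 108 others. A replicate block gave 2 on day 4 and 6871 of all genes over all time points.

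Of the changes of single genes under the alternatives, 1513 kept direction and side of the threshold, 205 lost their call, 52 gained one and 45 turned. Signs turned only for changes that had not passed, with the exception of Thbd on day 4, at -0.092 with the reference genes. These also turned F3 on day 3 (-0.048), Plau on days 2, 3 and 4 (-0.40, -0.54 and -0.44), Plaur on day 3 (-0.51), Procr on day 1 (-0.20), Thbd on days 1, 2, 3 and 5 (-0.30, -0.068, -0.36 and -0.46) and Vwf on days 3 and 4 (-0.52 both). Quantile normalization turned Plau on days 2 and 3 (-0.003 and -0.055) and Thbd on days 1, 3 and 5 (-0.019, -0.06 and -0.27). The deposited table turned Plau on day 2 (-0.001), and the replicate block turned Plau on days 2, 3 and 4 (-0.02, -0.069 and -0.014) and Plaur on day 1 (0.07). Plaur was turned by the mean of both probes on days 1, 2 and 4 (0.083, 0.093 and 0.018), by median scaling (0.29, 0.24 and 0.14), and on day 1 by normexp (0.021) and the slide block (0.25). Normexp turned Procr on day 2 (-0.19) and Thbd on days 1 and 5 (-0.18 and -0.35), and the fit without the lowest spots turned Procr on days 1 and 2 (-0.05 and -0.15). The slide block turned Vwf on day 3 (-0.25). With 1 array left out, signs turned within -0.02 to 0.15 for Plau on day 3, -0.191 to 0.071, -0.024 to 0.247 and -0.465 to 0.048 for Plaur on days 1, 3 and 4, -0.021 to 0.612 for Procr on day 1, -0.05 to 0.33 for Thbd on day 5 and -0.14 to 0.36 for Vwf on day 3. The cause of these turns was not tested.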
